A study of Homo sapiens with 12 samples.

Results

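The 10 genes described here encode subunits of the BAF form of the SWI/SNF chromatin remodelling complex that stand beside SMARCA4 (BRG1): the alternative ATPase SMARCA2, ARID1A and ARID1B, SMARCD1, SMARCD2 and SMARCD3, BCL7A, BCL7B and BCL7C, and ACTL6A. They were chosen by symbol, as subunits that belong to families of related genes, and each has 1 row in a table of 63568 genes. RNA was sequenced from LNCaP cells, a human prostate cancer line of luminal type, 72 h or 144 h after transfection. A non-targeting siRNA pool (si-NT) gave 2 libraries a time point, and 2 siRNAs against SMARCA4 gave 2 libraries each, the 4 BRG1 depleted libraries, which makes 12 in all. Cells collected at 144 h had been split and transfected again at 72 h, si-NT cells included. The siRNAs are named 2 and 3, as the columns of the table number them, and which siRNA of the sample titles each one is was not settled, since the titles use other numbers.

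SWI/SNF complexes use the energy of ATP to slide or evict nucleosomes, which opens enhancers and promoters to transcription factors. A BAF complex holds 1 ATPase, either SMARCA4 (BRG1) or SMARCA2 (BRM), around which the other subunits assemble, and several of these positions are filled by 1 member of a small gene family. ARID1A and ARID1B exclude each other and mark a complex as BAF, and 1 of the SMARCD proteins is part of its base. BCL7 proteins and ACTL6A sit with the ATPase, ACTL6A as an actin-related protein bound next to the ATPase domain. Cancers that lose SMARCA4 or ARID1A are known to lean on the remaining paralogue, so the levels of the paralogues after depletion are the question here.

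All 10 genes passed the filter on low values, at least 1 TPM (a level corrected for transcript length and for the library's total) in at least 2 libraries, which 16337 genes passed. In the 4 si-NT libraries, SMARCD2 was at 90.6 to 99.8 TPM, ACTL6A at 64.0 to 87.4, ARID1A at 32.8 to 37.1 and SMARCD1 at 31.1 to 33.8. SMARCD3 was at 24.8 to 29.6 TPM, BCL7C at 23.0 to 29.0, BCL7B at 23.2 to 26.6, SMARCA2 at 21.0 to 26.2, ARID1B at 13.3 to 14.9 and BCL7A at 9.91 to 12.1. The ranges of ARID1A and SMARCD1 overlapped, as did those of SMARCD3, BCL7C, BCL7B and SMARCA2, while SMARCD2, ACTL6A, ARID1B and BCL7A each stood apart from their neighbours in this order. No run of 100 bases of any annotated transcript of these genes or of SMARCA4 occurs in a transcript of another gene, so reads of that length are not shared between the paralogues.

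The luminal markers KLK3, FOXA1, HOXB13, TMPRSS2 and FOLH1 were above 1 TPM in every library, from 69.7 TPM for TMPRSS2 to 841 TPM for KLK3. The basal markers KRT5, KRT14 and TP63 summed to at most 0.38 TPM in any library, and of the fibroblast genes COL1A1, COL1A2 and DCN, 1 of 3 reached 1 TPM, with a sum of 3.10 to 9.13. ERCC spike-ins took 0.805% to 1.97% of the TPM of a library. If every gene is rescaled so that the spike-ins are equal, the median change over all tested genes (log2) moves from 0.03 to -0.31 at 144 h and from 0.06 to -0.11 at 72 h. The factors of this rescaling differed within groups, at 0.667 and 1.11 in the si-NT libraries of 144 h and at 1.10 and 1.63 with siRNA 3 at 144 h. Shares of a gene in the sum of its family do not move with such a factor. By the study's methods the spike-ins were added to a fixed amount of total RNA. The rescaled values therefore measure neither cell number nor RNA per cell, and what moved the factors was not tested. Nothing in the labels says that the libraries of a group came from separate cultures, so the p-values measure the spread between these libraries.

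SMARCA4, the target of the siRNAs, was at 97.0 and 73.4 TPM in the si-NT libraries of 72 h and at 94.5 and 107 in those of 144 h. In BRG1 depleted cells it lay between 17.5 and 21.7 TPM at 72 h and between 11.4 and 17.4 at 144 h, below every si-NT library. Its level fell by 77.3% and by 84.9% from the si-NT mean, and the difference between the siRNAs did not pass a limma test (adjusted p = 0.889 at 72 h and 0.738 at 144 h), at -0.14 (95% interval -0.57 to 0.28) and -0.17 (-0.60 to 0.26) on the log2 scale, siRNA 3 minus siRNA 2.

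SMARCA2 (BRM), the ATPase that can take the place of BRG1, did not rise in depleted cells and was lower at 144 h. The gene (ENSG00000080503.15) lies at chr9:1980290-2193624 on the plus strand of GRCh37. It was at 23.7 and 22.8 TPM in si-NT cells at 72 h, 16.8 and 20.9 with siRNA 2, and 20.9 and 19.2 with siRNA 3. At 144 h it was at 26.2 and 21.0 TPM in si-NT cells, 15.3 and 14.1 with siRNA 2, and 16.7 and 12.7 with siRNA 3. Each of the 8 depleted libraries was below each of the 4 si-NT libraries, as 3.46% of tested genes were. On the log2(TPM + 1) scale the change was -0.25 ± 0.13 (SE, adjusted p = 0.435) at 72 h and -0.65 ± 0.13 (adjusted p = 0.00535) at 144 h, and both siRNAs gave nearly equal values at 144 h, -0.64 with siRNA 2 and -0.65 with siRNA 3. Without the first si-NT library of 144 h the change was -0.49 with an adjusted p of 0.0821, and after ERCC rescaling it was -1.03 with an adjusted p of 0.074.

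Together SMARCA4 and SMARCA2 summed to 108 ± 17.3 TPM (SD, n = 2) with si-NT and 38.8 ± 0.766 (n = 4) after depletion at 72 h. At 144 h the sums were 124 ± 4.88 TPM (n = 2) and 29.9 ± 1.33 (n = 4). SMARCA2 made up 21.6% of this sum in si-NT cells and 50.1% in depleted cells at 72 h, and 19.1% and 49.3% at 144 h. Since SMARCA4 is the target, this share is given as a description. It was larger in every depleted library than in any si-NT library, and SMARCA2 itself was at a lower TPM in every depleted library.

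**Figure D1:**
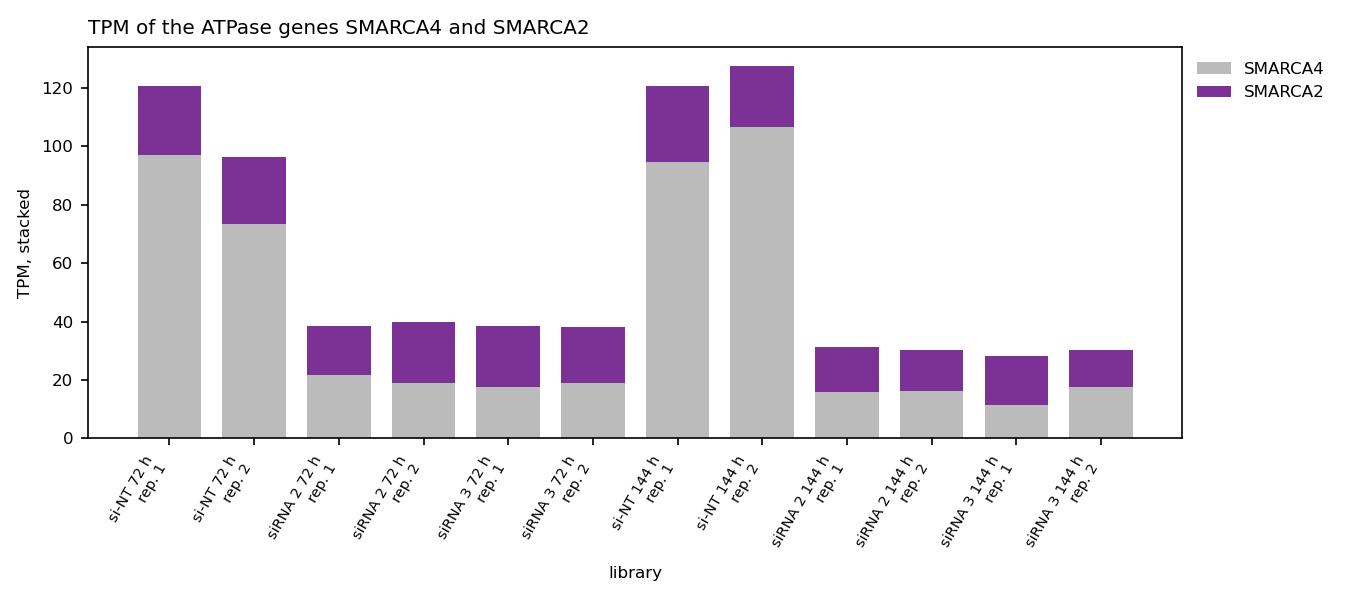
TPM of SMARCA4 (grey) and SMARCA2 (purple), stacked, in each of the 12 libraries. The sums of the 8 depleted libraries lie between 28.1 and 39.9 TPM and those of the si-NT libraries between 96.2 and 128, and the SMARCA2 part is smaller in each depleted library than in any si-NT library.

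Tested at 72 h with both siRNAs together, 0 of the 10 genes passed an adjusted p of 0.05 by limma, against 1.68% of all tested genes, and BCL7B, SMARCD2 and ARID1A (3 of 10) had an unadjusted p under 0.05, as 14.3% of all genes had. At 144 h the count was 4 of 10, against 24.4% of all genes. SMARCA2 and ACTL6A were lower, where 10.8% of all genes were called lower, and SMARCD3 and BCL7C higher, where 13.6% were. The median log2 fold change of the 10 genes was 0.16 at 72 h and 0.05 at 144 h, beside 0.06 and 0.03 over all tested genes. By groups that did not overlap, 2 of 10 genes were lower at 72 h (SMARCA2 and BCL7B, against 6.93% of all genes) and 4 higher (ARID1A, SMARCD1, SMARCD2 and BCL7C, against 16.3%). At 144 h, 3 were lower (SMARCA2, BCL7B and ACTL6A, against 22.5%) and 3 higher (SMARCD2, SMARCD3 and BCL7C, against 26.1%). Between si-NT cells of 144 h and of 72 h, 0 of the 10 genes differed by limma, against 0% of all genes, and 0 had an unadjusted p under 0.05, against 4.11%. In 0 of the 10 did the change at 144 h differ from that at 72 h at an adjusted p under 0.05, against 0.0184% of all genes, while ACTL6A (1 of 10) had an unadjusted p of 0.0339 in that limma test, where 11.9% of all genes were under 0.05.

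**Figure D2:**
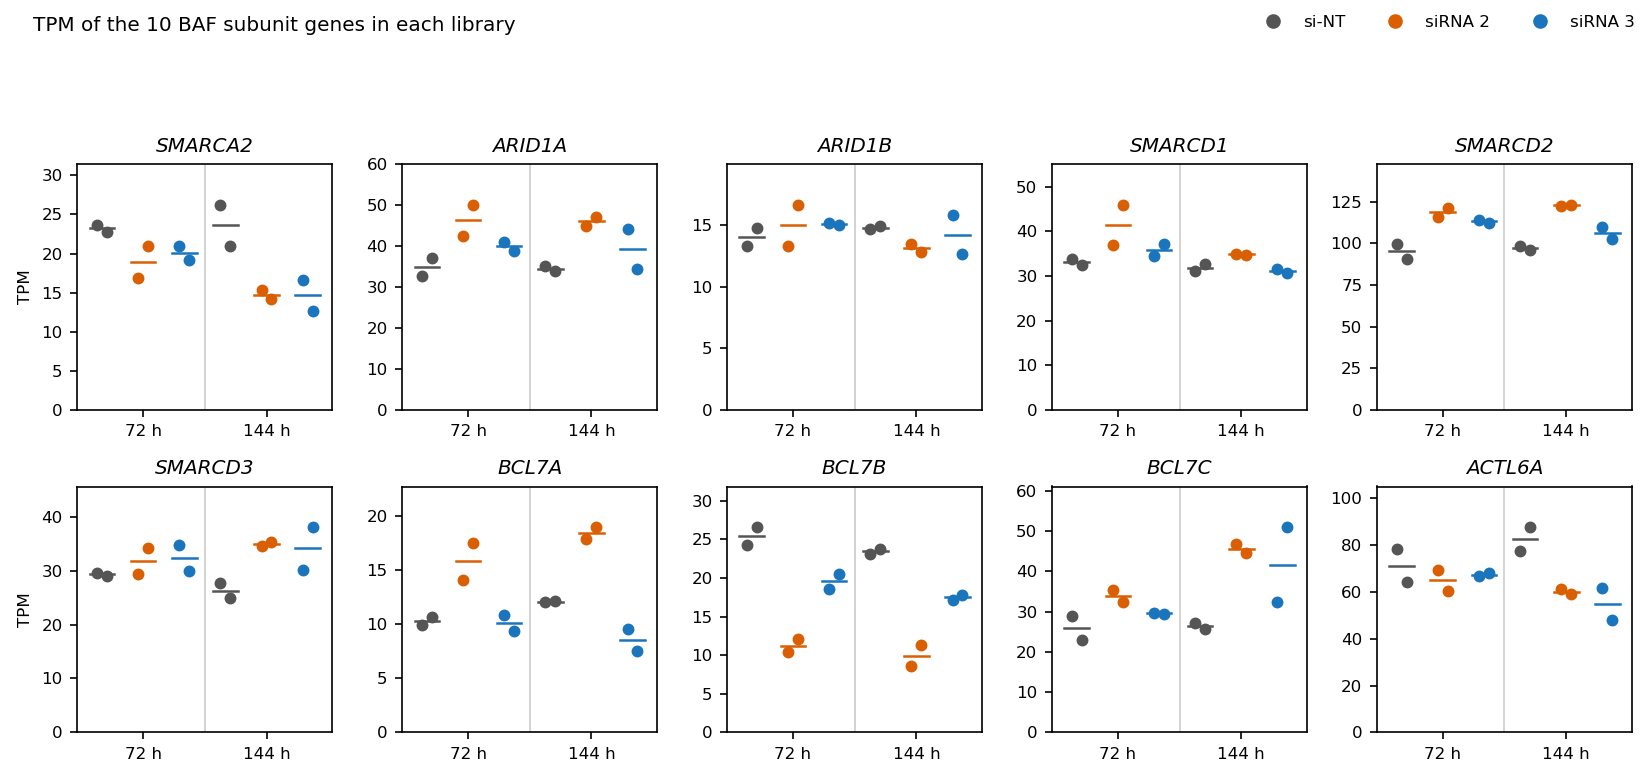
TPM of the 10 genes in each library, with si-NT in grey, siRNA 2 in orange and siRNA 3 in blue, points for libraries and lines for means of 2. SMARCA2 is low in all depleted libraries, and the panels have separate axes that start at 0. The libraries of siRNA 2 and siRNA 3 do not overlap for ARID1A, SMARCD2, BCL7A or BCL7B at either time point. How many of all tested genes separate so was not counted.

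By its shares the ARID1 pair shifted toward ARID1A, while neither gene alone passed the adjusted test on all 12 libraries. ARID1A (ENSG00000117713.13, chr1:27019727-27108595, plus strand) is the larger of the pair in expression and a frequent target of mutation in cancer. It was at 32.8 and 37.1 TPM in si-NT cells at 72 h and 35.1 and 34.1 at 144 h. With siRNA 2 it was at 42.5 and 50.1 TPM at 72 h and 44.9 and 47.2 at 144 h, and with siRNA 3 at 41.2 and 38.9, then 44.3 and 34.4. The depleted libraries were above si-NT at 72 h, and at 144 h 1 library of siRNA 3 lay within the si-NT range. The log2 fold change was 0.29 ± 0.13 at both time points, with adjusted p-values of 0.349 and 0.144, and it was 0.39 (adjusted p = 0.0317) at 144 h without that library. ARID1B (ENSG00000049618.17, chr6:157097154-157531913, plus strand) stayed between 12.6 and 16.6 TPM over all 12 libraries, with overlapping groups and changes of 0.09 ± 0.12 and -0.11 ± 0.12 (adjusted p = 0.799 and 0.529).

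The share of ARID1B in the summed TPM of ARID1A and ARID1B was 28.9% and 28.5% in si-NT cells at 72 h, 23.8% and 24.9% with siRNA 2, and 26.9% and 27.8% with siRNA 3. At 144 h it was 29.5% and 30.4% in si-NT cells, 23.0% and 21.3% with siRNA 2, and 26.2% and 26.9% with siRNA 3. Each depleted library had a lower share than each si-NT library, and each library of siRNA 2 a lower one than each of siRNA 3. How often the shares of other gene pairs separate so was not counted. Averaged over both time points, the share differed by -4.20 percentage points in depleted cells by a two-sided exact permutation test within time points (p = 0.00889, unadjusted, 1 of 7 shares tested, where the design allows 0.00444 at the least). With each library left out in turn, the difference lay between -4.62 and -3.70 and p reached at most 0.0267.

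SMARCD proteins link the ATPase module to the base of the complex and make contact with transcription factors. SMARCD2 (ENSG00000108604.11, chr17:61909441-61920425, minus strand), the main family member here, was at 99.8 and 90.6 TPM in si-NT cells at 72 h and 98.5 and 96.2 at 144 h. With siRNA 2 it was at 116 and 121 TPM, then 123 and 123, and with siRNA 3 at 114 and 112, then 110 and 102. All 8 depleted libraries were above all 4 si-NT libraries, as 8.07% of tested genes were. The changes were 0.28 ± 0.09 at 72 h and 0.23 ± 0.09 at 144 h and did not pass the adjusted test with both siRNAs together (adjusted p = 0.167 and 0.0923), while siRNA 2 at 144 h gave 0.33 ± 0.08 (adjusted p = 0.0218). Against the 4 si-NT libraries pooled it passed at both time points (adjusted p = 0.0423 and 0.0207), and at 144 h also without the second siRNA 3 library of 144 h (0.28, adjusted p = 0.0387). After ERCC rescaling the change at 144 h was -0.17, above the median of all genes on that scale.

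SMARCD3 (ENSG00000082014.12, chr7:150935850-150974982, minus strand), known from heart and muscle, was at 29.6 and 29.0 TPM in si-NT cells at 72 h and 27.6 and 24.8 at 144 h. It was at 29.3 and 34.1 TPM with siRNA 2 and 34.8 and 29.9 with siRNA 3 at 72 h, and at 34.6 and 35.3, then 30.2 and 38.0, at 144 h. The groups overlapped at 72 h and not at 144 h. SMARCD3 rose by 0.38 ± 0.11 at 144 h (adjusted p = 0.027) on the TPM scale, against 0.12 ± 0.11 at 72 h (adjusted p = 0.685), and after ERCC rescaling the value at 144 h was -0.01. The call was lost when any of 5 libraries of 144 h was left out, with adjusted p-values of 0.0513 to 0.233, and in a fit of the 6 libraries of 144 h alone (0.38, adjusted p = 0.0533). Exons of genes on the other strand, CHPF2 among them, cover 28.4% of the exonic bases of SMARCD3. CHPF2 rose by 0.64 ± 0.16 at 144 h (adjusted p = 0.0128), and whether the gene counting used strand is not given in the sources used here, so its part in the SMARCD3 value was not tested.

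SMARCD1 (ENSG00000066117.10, chr12:50478983-50494490, plus strand), a family member that binds nuclear receptors, ranged from 31.1 to 33.8 TPM in si-NT cells and from 30.6 to 45.9 in depleted cells. Its change was 0.21 ± 0.11 at 72 h (adjusted p = 0.445) and 0.05 ± 0.11 at 144 h (adjusted p = 0.799). The summed TPM of the family was 158 ± 7.89 (SD, n = 2) in si-NT and 186 ± 10.1 (n = 4) in depleted cells at 72 h, and 155 ± 2.49 and 182 ± 12.4 at 144 h. SMARCD2 held 59.5% to 63.97% of the sum in every library. Over both time points no SMARCD share passed the exact permutation test between depleted and si-NT libraries, with differences of -1.36, 0.99 and 0.37 percentage points for SMARCD1, SMARCD2 and SMARCD3 (p = 0.111, 0.307 and 0.764). At 144 h the SMARCD1 share was 17.9% to 18.4% in depleted libraries, below the 19.8% and 21.2% of si-NT (exact permutation p = 0.0667, the smallest that 1 time point allows). The difference in the SMARCD3 share was -1.43 percentage points at 72 h and 2.17 at 144 h and turned to -0.16 over both without the second siRNA 3 library of 144 h. With 1 library left out, the SMARCD1 difference lay between -1.73 and -0.99 and the SMARCD2 difference between 0.59 and 1.49. By the exact test SMARCD1 passed without the second siRNA 2 library of 72 h (p = 0.0133), and SMARCD2 without the second siRNA 3 library of 144 h (p = 0.0267).

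Members of the BCL7 family moved in different directions. BCL7 proteins are small subunits of the ATPase module with no enzyme activity of their own. The bases upstream of their RefSeq transcription starts are shown with those of SMARCA2, because the BCL7 members moved apart and SMARCA2 fell, each as 250 bases at the start listed first for the gene, from GRCh38.p14 and read 5′ to 3′ on the strand of the gene. Capitals mark matches to letters searched, among them TTTNGCGC and TTCCCGC (E2F), TGTTTAC and TATTTAC (forkhead), CCGGAAG (ETS), CCAAT and GCCATNTTG (YY1), each on both strands.
BCL7A, chr12:122021634-122021883, plus strand: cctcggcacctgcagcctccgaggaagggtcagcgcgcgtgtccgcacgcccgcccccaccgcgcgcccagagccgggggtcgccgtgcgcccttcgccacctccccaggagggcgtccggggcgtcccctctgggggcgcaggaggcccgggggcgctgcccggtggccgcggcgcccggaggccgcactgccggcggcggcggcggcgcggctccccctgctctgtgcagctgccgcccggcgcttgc
BCL7B, chr7:73557237-73557486, minus strand: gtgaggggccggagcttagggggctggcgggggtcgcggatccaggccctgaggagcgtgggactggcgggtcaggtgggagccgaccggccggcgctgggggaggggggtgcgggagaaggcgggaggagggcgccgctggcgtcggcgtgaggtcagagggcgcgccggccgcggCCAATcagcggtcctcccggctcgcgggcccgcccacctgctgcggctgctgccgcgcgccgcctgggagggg
BCL7C, chr16:30894078-30894327, minus strand: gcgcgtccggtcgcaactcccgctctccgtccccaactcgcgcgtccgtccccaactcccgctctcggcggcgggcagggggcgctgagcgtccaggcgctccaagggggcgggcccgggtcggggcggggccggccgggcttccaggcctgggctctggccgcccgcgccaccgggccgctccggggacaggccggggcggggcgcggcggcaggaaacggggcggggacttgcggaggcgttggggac
SMARCA2, chr9:2015097-2015346, plus strand: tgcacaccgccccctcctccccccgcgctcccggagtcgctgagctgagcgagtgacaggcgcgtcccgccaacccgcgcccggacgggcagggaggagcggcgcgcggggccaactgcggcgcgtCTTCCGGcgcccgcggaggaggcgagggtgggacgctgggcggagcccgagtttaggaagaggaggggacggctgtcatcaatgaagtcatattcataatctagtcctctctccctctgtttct

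The stretches of BCL7A, BCL7B and BCL7C were 82.4%, 79.6% and 80.8% G or C, and that of SMARCA2 68.8%, against a median of 58.0% over all RefSeq promoters. RefSeq lists 3 further starts of SMARCA2, with 40.0%, 46.0% and 42.0% G or C before them, and 1 of BCL7B, with 75.6%, and none of these windows held a match to the letters named. BCL7A and BCL7C held no match in the whole windows searched, 250 bases before to 50 after the start. BCL7B held a CCAAT match that begins 73 bases before the start, and an ETS match 7 bases after it, beyond the stretch printed. The SMARCA2 window of the stretch printed held an ETS match that begins 124 bases before the start. Of all 35116 promoters, 34.6% hold CCAAT and 10.3% CCGGAAG on either strand, so both are frequent letters. TTCCCGC, in 6.55% of all promoters, was found at SMARCD2, and TATTTAC, in 2.67%, at ARID1B. TTTNGCGC (in 1.79% of all promoters), TGTTTAC (in 3.42%) and GCCATNTTG (in 2.92%) were in none of the 18 windows of the 9 members with an entry, which are all but ACTL6A.

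BCL7B (ENSG00000106635.3, chr7:72950686-72972020, minus strand, GRCh37) was lower with siRNA 2, and its values with siRNA 3 lay between those of siRNA 2 and si-NT. It was at 24.3 and 26.6 TPM in si-NT cells at 72 h, 10.4 and 12.1 with siRNA 2, and 18.6 and 20.5 with siRNA 3. At 144 h it was at 23.2 and 23.8 TPM in si-NT cells, 8.57 and 11.3 with siRNA 2, and 17.2 and 17.9 with siRNA 3. The 3 treatments did not overlap at either time point, and how many of all tested genes separate so was not counted. With siRNA 2, BCL7B fell by 1.11 ± 0.14 on the log2 scale at 72 h (adjusted p = 0.00743) and by 1.17 ± 0.14 at 144 h (adjusted p = 0.000889). Its mean fell by 55.8% of the si-NT mean at 72 h and fell by 57.7% at 144 h. With siRNA 3 the changes were -0.36 ± 0.14 (adjusted p = 0.294) and -0.40 ± 0.14 (adjusted p = 0.0662). The latter passed after ERCC rescaling (-1.01, adjusted p = 0.0485) and without either siRNA 2 library of 144 h (adjusted p = 0.0446 and 0.0451). After ERCC rescaling, siRNA 2 gave -1.38 (adjusted p = 0.0954) at 72 h and -1.34 (adjusted p = 0.0376) at 144 h. With both siRNAs together the changes were -0.74 ± 0.30 and -0.79 ± 0.30 (adjusted p = 0.272 and 0.0742), where the gap between the siRNAs counts as spread. At 144 h the joint change passed against the 4 si-NT libraries pooled (-0.84, adjusted p = 0.0162) and without the second siRNA 3 library of 144 h (-0.92, adjusted p = 0.0497).

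BCL7A (ENSG00000110987.4, chr12:122457328-122499950, plus strand, GRCh37), first known from a translocation in B cell lymphoma, was higher with siRNA 2 and not with siRNA 3. It was at 9.91 and 10.7 TPM in si-NT cells at 72 h, 14.1 and 17.6 with siRNA 2, and 10.9 and 9.38 with siRNA 3. At 144 h it was at 12.1 and 12.1 TPM in si-NT cells, 17.9 and 19.0 with siRNA 2, and 9.55 and 7.50 with siRNA 3. With siRNA 2 every value was above si-NT, while with siRNA 3 the values overlapped si-NT at 72 h and were below it at 144 h. The change with siRNA 2 was 0.57 ± 0.15 at both time points, with adjusted p-values of 0.0874 at 72 h and 0.0238 at 144 h. At 144 h this call was lost when any of 4 libraries was left out, either si-NT or either siRNA 2 library, with adjusted p-values of 0.0833 to 0.119. The change with siRNA 3 was -0.02 ± 0.15 (adjusted p = 0.975) and -0.47 ± 0.15 (adjusted p = 0.0503). At 144 h this lower value with siRNA 3 passed in 7 of 19 alternative settings, among them a pseudocount of 0.1 (adjusted p = 0.0468), ERCC rescaling (-1.03, adjusted p = 0.0481), and a fit without the first siRNA 3 library of 144 h (-0.62, adjusted p = 0.035), and over all 19 the adjusted p ran from 0.0222 to 0.284.

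Tested against each other, siRNA 3 gave 1.04 ± 0.15 less BCL7A than siRNA 2 on the log2 scale at 144 h (difference -1.04, adjusted p = 0.0332) and 0.77 ± 0.14 more BCL7B (adjusted p = 0.0615). At 144 h BCL7A was the 1 member of 10 that passed, against 0.331% of all genes. At 72 h the differences were -0.60 ± 0.15 for BCL7A (adjusted p = 0.268) and 0.75 ± 0.14 for BCL7B (adjusted p = 0.111), and 0 of 10 members passed, against 0.141%, with 2 at an unadjusted p under 0.05, against 8.33%. Averaged over both time points, a contrast added after the values were seen, the differences were -0.82 ± 0.10 for BCL7A and 0.76 ± 0.10 for BCL7B, both with an adjusted p of 0.00665. These 2 of 10 members passed against 1.55% of all genes, and both were lost without the second siRNA 3 library of 72 h (adjusted p = 0.0514 for each) and after ERCC rescaling (adjusted p = 0.251 for BCL7A and 0.768 for BCL7B). The call for BCL7A at 144 h was lost in 9 of the 12 fits without 1 library, with adjusted p-values of 0.0545 to 0.236. In a two-sided exact permutation test of siRNA 3 against siRNA 2 within time points, BCL7A, BCL7B, ARID1A and SMARCD2 each reached p = 0.0556. This is the smallest value that 36 relabellings allow, and the BCL7A, BCL7B and ARID1B shares reached it too. How many of all tested genes reach it was not counted. ARID1A, SMARCD1 and SMARCD2 were lower with siRNA 3 than with siRNA 2 over both time points at an unadjusted p under 0.05, as 17.7% of all genes differed in either direction (differences of -0.22, -0.18 and -0.14, adjusted p = 0.275, 0.276 and 0.262). For SMARCA2 and ACTL6A the difference was 0.04 (95% interval -0.22 to 0.29) and -0.04 (-0.27 to 0.18).

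**Figure D3:**
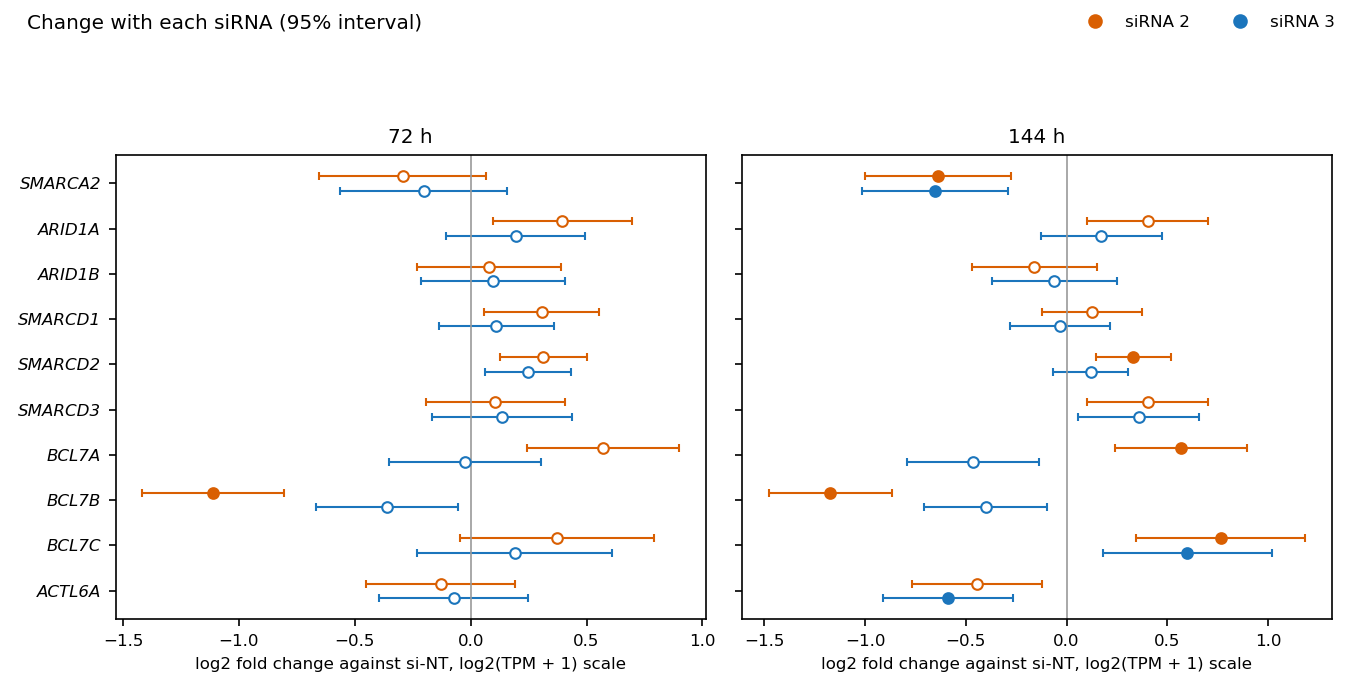
Log2 fold change against si-NT of each gene with siRNA 2 (orange) and siRNA 3 (blue) at 72 h and 144 h, with 95% intervals from limma, filled points marking an adjusted p under 0.05. The intervals of both siRNAs are separate for BCL7A at 144 h and for BCL7B at both time points, and overlap for the other genes.

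BCL7C (ENSG00000099385.7, chr16:30844947-30905623, minus strand, GRCh37) was higher with both siRNAs. It was at 29.0 and 23.0 TPM in si-NT cells at 72 h, 35.3 and 32.3 with siRNA 2, and 29.8 and 29.5 with siRNA 3. At 144 h it was at 27.1 and 25.7 TPM in si-NT cells, 46.7 and 44.5 with siRNA 2, and 32.3 and 50.9 with siRNA 3. All 8 depleted libraries were above all 4 si-NT libraries, as was the case for 8.07% of tested genes. The change was 0.28 ± 0.16 at 72 h (adjusted p = 0.474), and BCL7C rose by 0.68 ± 0.16 at 144 h (adjusted p = 0.0112), with 0.77 for siRNA 2 (adjusted p = 0.02) and 0.60 for siRNA 3 (adjusted p = 0.0496). Without the first or the second si-NT library of 144 h the adjusted p was 0.0617 or 0.104, and after ERCC rescaling the change was 0.29 (adjusted p = 0.584).

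The summed TPM of the BCL7 family was 61.7 ± 2.06 (SD, n = 2) in si-NT and 60.1 ± 1.23 (n = 4) in depleted cells at 72 h, and 62.0 ± 0.488 and 70.8 ± 7.94 at 144 h. BCL7C made up 45.8% and 38.2% of the sum in si-NT cells at 72 h, 58.9% and 52.1% with siRNA 2, and 50.2% and 49.6% with siRNA 3. At 144 h its share was 43.5% and 41.8% in si-NT cells, 63.8% and 59.6% with siRNA 2, and 54.6% and 66.7% with siRNA 3. The BCL7B share was 38.5% and 44.1% in si-NT cells at 72 h, 17.4% and 19.5% with siRNA 2, and 31.4% and 34.6% with siRNA 3. At 144 h the BCL7B share was 37.2% and 38.6% in si-NT cells, 11.7% and 15.1% with siRNA 2, and 29.2% and 23.4% with siRNA 3. Every depleted library held a larger BCL7C share and a smaller BCL7B share than every si-NT library. Shares of the same sum depend on each other, so the BCL7B and BCL7C differences are not separate results. How often shares in other gene families separate so was not counted. By the exact permutation test over both time points, the BCL7C share was 14.6 percentage points higher in depleted cells (p = 0.00444, the smallest allowed) and the BCL7B share differed by -16.8 (p = 0.00889), while the BCL7A share differed by 2.15 (p = 0.533). Without any 1 library the BCL7C difference stayed between 12.7 and 16.5 and the BCL7B difference between -18.3 and -15.4, with p of at most 0.0133 and 0.0267.

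**Figure D4:**
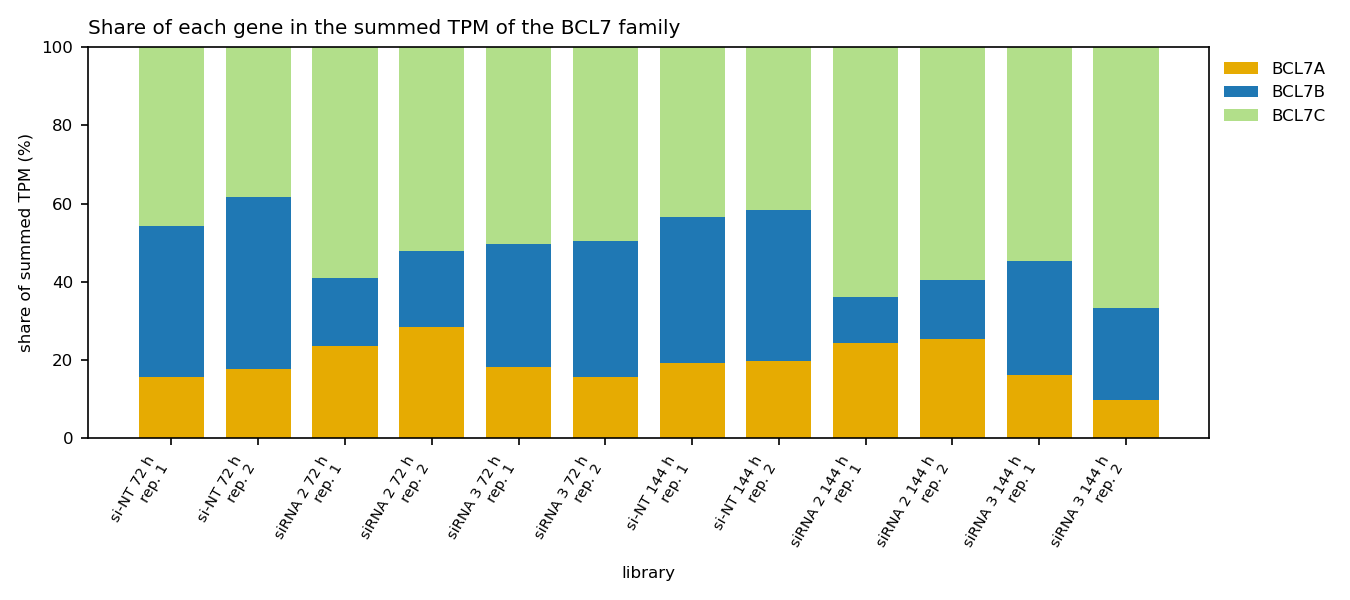
Share of BCL7A (yellow), BCL7B (blue) and BCL7C (green) in the summed TPM of the family, in percent, for each of the 12 libraries. The BCL7B part runs from 37.2% to 44.1% in si-NT libraries, from 23.4% to 34.6% with siRNA 3 and from 11.7% to 19.5% with siRNA 2, and the BCL7A part is largest with siRNA 2.

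ACTL6A (BAF53A, ENSG00000136518.12, chr3:179280674-179306195, plus strand), the actin-related subunit of dividing cells whose place ACTL6B takes in neurons, was lower at 144 h. It was at 78.3 and 64.0 TPM in si-NT cells at 72 h, 69.3 and 60.3 with siRNA 2, and 66.8 and 67.8 with siRNA 3, and these groups overlapped. At 144 h it was at 77.2 and 87.4 TPM in si-NT cells, 61.1 and 59.0 with siRNA 2, and 61.5 and 47.8 with siRNA 3, with no overlap. ACTL6A fell by 0.52 ± 0.12 on the log2 scale (adjusted p = 0.0111), and its mean fell by 30.3% of the si-NT mean, after a change of -0.10 ± 0.12 at 72 h (adjusted p = 0.78). Without the second si-NT library of 144 h the value was -0.43 (adjusted p = 0.138), and after ERCC rescaling -0.91 (adjusted p = 0.101). ACTL6B was at 0.09 TPM or less in every library.

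As a check of each gene over both time points, the exact permutation test gave an unadjusted p under 0.05 for 7 of 10 genes, against 34.4% of all tested genes. The smallest p, 0.00444, was that of SMARCA2, SMARCD2 and BCL7C, followed by BCL7B at 0.00889 and ARID1A, SMARCD3 and ACTL6A at 0.0178. SMARCD1, BCL7A and ARID1B gave 0.133, 0.551 and 0.862. By siRNA, 5 of 10 members passed limma's adjusted test with siRNA 2 at 144 h (SMARCA2 and BCL7B lower, BCL7A, BCL7C and SMARCD2 higher, against 21.3% of all genes) and 1 at 72 h (BCL7B, against 1.57%). With siRNA 3, 3 passed at 144 h (SMARCA2 and ACTL6A lower, BCL7C higher, against 20.2%) and 0 at 72 h (against 0.655%), where BCL7B and SMARCD2 had an unadjusted p under 0.05, as 13.0% of all genes had. With siRNA 2 at 144 h, BCL7B stayed called with any library left out, and it was the 1 member called without the first si-NT library or either siRNA 2 library of 144 h. With siRNA 3 at 144 h, 0 members were called without either si-NT library or without the second siRNA 3 library of that time point.

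Of 18 other SWI/SNF subunits listed beside these genes, 16 passed the filter, and 0 of 16 were called at 72 h or at 144 h with both siRNAs together, against 1.68% and 24.4% of all genes. An unadjusted p under 0.05 by limma was reached by 1 and 4 of the 16, against 14.3% and 36.8% of all genes. The 4 at 144 h were SMARCB1, SMARCE1 and PHF10 with negative values (-0.24, -0.27 and -0.33) and BICRA with a positive one (0.52). The median change of all 16 at 144 h was -0.03, beside 0.03 over all tested genes. By groups that did not overlap, 0 of 16 were lower and 3 higher at 72 h, against 6.93% and 16.3% of all genes. At 144 h, 6 were lower and 2 higher, against 22.5% and 26.1%. The exact permutation test over both time points gave an unadjusted p under 0.05 for 5 of 16, against 34.4%. With siRNA 3 alone, the core subunits SMARCB1 and SMARCE1 and the PBAF subunit PHF10 were lower at 144 h (-0.30, -0.37 and -0.42, adjusted p = 0.0432, 0.033 and 0.0484), 3 of 16 against 20.2% of all genes. In the comparison of siRNA 2 with si-NT, BICRA, which marks the GBAF form, was called higher at 144 h (0.68, adjusted p = 0.0203), 1 of 16 against 21.3%. BICRA was above all 4 si-NT libraries in all 8 depleted libraries, those of siRNA 3 included, 1 of 16 against 8.07% of all genes.

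**Figure D5:**
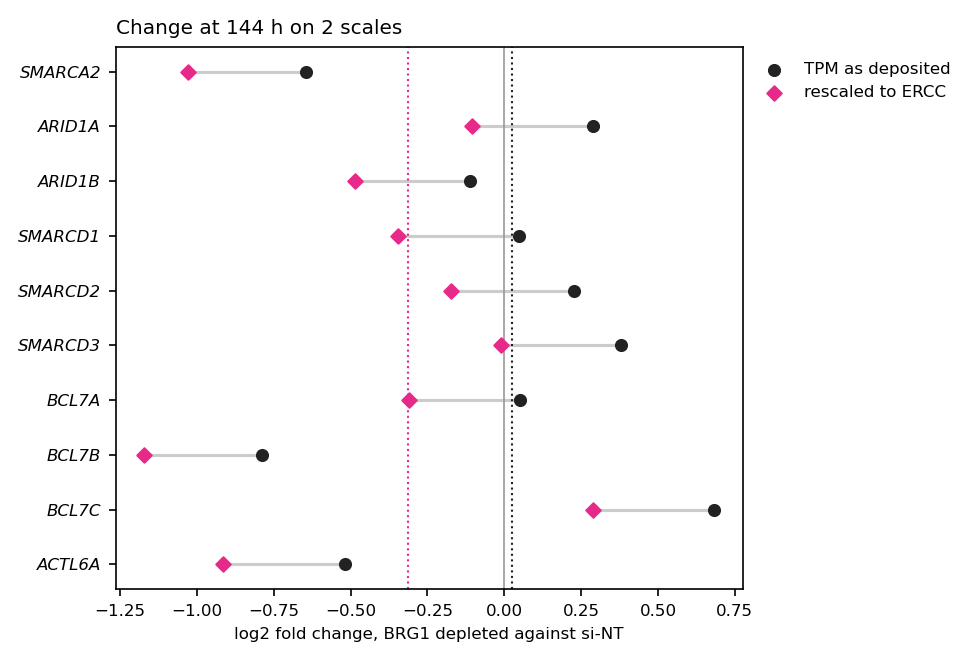
Log2 fold change of the 10 genes at 144 h, BRG1 depleted against si-NT, on TPM as deposited (black circles) and after rescaling to the ERCC spike-ins (pink diamonds), with dotted lines at the median of all tested genes on each scale. SMARCA2, ARID1B, BCL7B and ACTL6A lie left of the median on both scales. ARID1A, SMARCD2, SMARCD3 and BCL7C lie right of it on both. ARID1A, SMARCD1, SMARCD2, SMARCD3 and BCL7A change sign, as the median of all tested genes does.

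On the ERCC scale the median of all genes at 144 h was -0.31, and SMARCA2, BCL7B and ACTL6A were at -1.03, -1.17 and -0.91 and BCL7C at 0.29. ARID1A, SMARCD2 and SMARCD3, with positive values on the TPM scale, were at -0.11, -0.17 and -0.01, each above that median. SMARCD1 and BCL7A were at -0.34 and -0.31. No member passed the adjusted test on that scale at either time point with both siRNAs together.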

How the data were processed

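LNCaP RNA was extracted, mixed with ERCC spike-ins, made into stranded mRNA libraries and sequenced in 100-cycle paired-end runs. Per the labels and the study's methods, the authors trimmed reads with Trim Galore 0.11.2 and aligned them to hg19 (GRCh37) with STAR 2.4.0j. Aligned reads were counted into GENCODE genes, and TPM was deposited. The methods also describe a normalisation of the reads to the ERCC controls. In the TPM as deposited, the spike-ins took 0.805% to 1.97% of a library, and no counts were used here. TPM keeps no read depth, so no counting error is given. The 12 columns were assigned to si-NT or BRG1 depleted at each time point by their names, and the siRNA by the number in the column.

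Values were tested as log2(TPM + 1). A gene was kept if 2 or more libraries reached 1 TPM, which left 16337. They entered limma 3.58.1 (R 4.3.3, eBayes with a trend), in 4 groups for both siRNAs together and in 6 groups by siRNA, with Benjamini-Hochberg adjustment over all of them, and ± after a log2 fold change is its standard error. The procedure was tested on simulated data. Shares and single genes were compared by two-sided exact permutation tests within time points (NumPy 2.4.6), without adjustment over the list. The members and lists, and the wish to see each siRNA apart, were chosen with earlier results of these data known. The named genes are all 10 members, SMARCA4, other subunits with a call or an unadjusted p under 0.05, and the 3 genes nearest SMARCA2 and ACTL6A by Pearson r among those with a mean of at least 5 TPM. Gene positions come from GENCODE release 44 lifted to GRCh37, promoters from RefSeq (GRCh38.p14), where 9 of 10 members had an entry; 1 set of letters searched there is not reported here. Alternatives covered scaling, pseudocount, filters, a replicate block, the control, each time point fitted alone and each library left out.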

Additional observations from a re-analysis of the deposited data

Results flagged for a closer look

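BCL7A differed between the siRNAs at 144 h, with a log2 difference of -1.04 (siRNA 3 minus siRNA 2, limma adjusted p = 0.0332). Averaged over both time points, a contrast added after the values were seen, the difference between the siRNAs was -0.82 for BCL7A and 0.76 for BCL7B (limma adjusted p = 0.00665 for each). Each of the 4 siRNA 2 libraries lay above each of the 4 siRNA 3 libraries for BCL7A and below each of them for BCL7B. SMARCD2 separated too, by a small gap, at 115.6 TPM or more with siRNA 2 and 114.14 or less with siRNA 3. How many of all tested genes separate in this way was not counted. By limma, 17.7% of them differed between the siRNAs over both time points at an unadjusted p under 0.05. SMARCA4 was lowered to a like level by both siRNAs (14.4 to 20.4 TPM as means of 2 libraries). The siRNA sequences were not analysed here, so whether either one matches a BCL7 transcript was not tested. In the 20 groups of 4 depleted libraries, 2 for each gene, 0 held a library far enough from the others to stand out by Dixon's criterion, where chance alone would mark about 1 in 20. These groups mix both siRNAs. For BCL7A and BCL7B, where the siRNAs lie apart, the criterion therefore says little about single libraries.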

How the results depend on the processing

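TPM keeps no depth, so counting error could not be set beside any value, and 2 si-NT libraries a time point carry every comparison. The share results moved with no scaling. By time point, the depleted minus si-NT difference in percentage points was -0.35 at 72 h and -2.37 at 144 h for SMARCD1, -1.43 and 2.17 for SMARCD3, and -2.83 and -5.58 for ARID1B. With both siRNAs together, 1 member (SMARCD2) was called at 72 h with the 4 si-NT libraries pooled as control, and 0 at 144 h after ERCC rescaling. Leaving out each library in turn left 1 to 6 members called at 144 h, 1 to 8 with siRNA 2 at 144 h, 0 to 5 with siRNA 3 at 144 h, 0 to 1 between the siRNAs at 144 h, and 0 to 2 between them over both time points. ERCC rescaling left 0 members called with siRNA 2 at 72 h, 1 (BCL7B) with siRNA 2 at 144 h, and 0 between the siRNAs at 144 h or over both time points. Of the settings added after the data were seen, siRNA 2 at 144 h gave 3 calls with no filter and 8 with a mean TPM of at least 5, and the difference between siRNAs at 144 h gave 2 calls with median-of-ratios factors and 2 with a mean TPM of at least 5. After ERCC rescaling the sign changed for ARID1B (-0.10) and SMARCD3 (-0.07) at 72 h and for ARID1A (-0.11), SMARCD1 (-0.34), SMARCD2 (-0.17), SMARCD3 (-0.011) and BCL7A (-0.31) at 144 h. With 1 library left out the sign changed for ACTL6A at 72 h (range -0.245 to 0.043), for BCL7A at 144 h (-0.13 to 0.28) and for BCL7A with siRNA 3 at 72 h (-0.12 to 0.071). The cause of these changes was not tested, other than fewer libraries or genes by construction.

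Replicates with the same number showed little common deviation (correlations of -0.229 to 0.30 over 15 pairs of groups, 2 of them over 0.1). Each group has a single difference between its replicates, so whether the numbers pair the libraries was not settled by this. With the replicate block, 0 members were called between the siRNAs at 144 h, where BCL7A had an adjusted p of 0.0658 by limma, and the other counts of members called stayed within 1.5 times. With siRNA 3 at 144 h the block added BCL7B (-0.40, adjusted p = 0.046) and dropped BCL7C (adjusted p = 0.0691), and it changed no other member's call.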

Other observations

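Over the 12 libraries, the genes whose log2(TPM + 1) followed SMARCA2 most closely among 10982 genes with a mean of at least 5 TPM were DDX21 (Pearson r = 0.962), NPM1 (0.962) and HLTF (0.958). Those that followed ACTL6A most closely were SASS6 (0.974), HMGB1 (0.972) and PCLAF (0.971). These values are descriptions over libraries that share treatments and time points, so they carry no p.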
